A study of Macaca mulatta with 24 samples.

Results

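The T-cell receptor complex and the proteins that carry its first signal were followed in the blood of rhesus macaques (Macaca mulatta) before and after 4 Gy total body irradiation. The genes considered were the CD3 chains CD3D, CD3E and CD3G, the zeta chain CD247, the coreceptors CD4, CD8A and CD8B, the kinases LCK and ZAP70, and the adaptor LAT. Every non-control probe that the scanner output named for one of these 10 genes was taken, which gave 12 of 43603 probes and 6 of the 10 genes, with 1 probe each for CD3D, CD247 and CD4, 2 each for CD3G and CD8B, and 5 for LCK. All 12 probes were well above background on all 24 arrays, none was saturated, and all 12 entered the tests. ZAP70 carried an older name in the scanner output and was found through its gene ID in 2 probes, and 1 further CD247 probe was found through its accession; these 3 probes are given beside the others but are left out of the counts unless this is stated. No probe was found here for CD3E, CD8A or LAT, which were not analysed here.

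Globin-depleted RNA of whole blood was hybridised, 1 sample per array, to 1-colour Agilent rhesus arrays. The pre-irradiation group held 7 arrays (0 Gy, coded as day 0 in the labels, although the methods of the study place this blood draw some days ahead of the irradiation), and the irradiated groups, all given 4 Gy, held 4, 6 and 7 arrays on days 3, 5 and 7. The labels name X-rays as the radiation, whereas the methods of the study describe a cobalt gamma source, and neither strain nor age is given in the labels. The labels speak of 8 animals, and the arrays carry replicate numbers 1 to 7, 4 of males and 3 of females, and no array of unirradiated animals at the later days was available here, so that time since the first blood draw and irradiation cannot be told apart. Between 48.3% and 61.2% of the probes of an array were well above background, and the median processed signal lay between 16.7 and 106 units. By the scan times in the file headers, 6 of the 7 pre-irradiation arrays and 6 of the 7 day 7 arrays were scanned in 1 session, and the pre-irradiation and day 7 arrays of replicate 5 with all day 3 and all day 5 arrays in another. A day 3 or day 5 comparison within a session therefore rests on 1 pre-irradiation array, while day 7 can be compared within a session over 6 and 6 arrays.

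T cells recognise peptides on other cells through an alpha and a beta chain whose variable segments are joined anew in each T cell. These chains have almost no cytoplasmic part, and the signal enters the cell through the CD3 chains and the zeta chain, whose tails carry immunoreceptor tyrosine-based activation motifs. The coreceptors CD4, on helper T cells, and CD8, on cytotoxic T cells, bring the kinase LCK to the receptor, LCK phosphorylates the motifs, ZAP70 docks on them, and ZAP70 then phosphorylates the adaptor LAT, on which the later steps of the pathway assemble. Lymphocytes are among the blood cells most sensitive to radiation.

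The probes are oligonucleotides of 60 bases, and those that read coding sequence show which part of each protein the values stand for. Places are given on the rhesus build named in the headers, rheMac2. The CD247 probe and the CD3G probe A_01_P1727646 are shown first because they lie in the signalling tails, with the codon blocks of the tyrosine motif in capitals (a tyrosine codon TAT or TAC, NNNNNN, and a codon of leucine or isoleucine, read on the strand of the probe in a frame without a stop codon before the last codon).
CD247 A_01_P1671106: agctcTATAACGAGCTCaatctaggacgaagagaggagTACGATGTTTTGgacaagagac
CD3G A_01_P1727646: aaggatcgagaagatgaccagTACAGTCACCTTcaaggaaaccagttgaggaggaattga
The CD247 probe (chr1:197172156-197172908, minus strand, read across an intron) held both blocks of a full motif, with 6 to 8 codons between the blocks allowed, which 34 of all 43603 probes did (0.0780%). The CD3G probe (chr14:116733562-116733621, plus strand) held the later block of its motif and ended at the stop codon; 1 block or more stood in 9.67% of all probes.

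The coreceptor and kinase probes below were chosen because they read coding sequence, and nothing in them is capitalised. For CD8B, LCK and ZAP70 they are not the brightest probe of the gene. For LCK the rule does not single out the probe shown. Other LCK probes read coding sequence too, among them A_01_P1800296, which lies in the kinase domain as well and moved the other way (below).
CD4 A_01_P1672106: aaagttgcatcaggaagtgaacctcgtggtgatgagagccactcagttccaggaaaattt
CD8B A_01_P1736326: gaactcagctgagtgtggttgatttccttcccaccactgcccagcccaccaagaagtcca
LCK A_01_P1800301: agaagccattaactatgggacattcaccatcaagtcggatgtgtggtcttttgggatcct
ZAP70 A_01_P1682841: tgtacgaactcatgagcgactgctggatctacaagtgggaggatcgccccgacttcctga
The CD4 probe (chr11:6997275-6998054, plus strand) and this CD8B probe (chr13:88464288-88469284, minus strand) each spanned an intron and read the extracellular part of the protein. The ZAP70 probe (chr13:97552866-97554166, plus strand) and the LCK probe, which the headers leave unplaced, read the kinase domain. The remaining probes read other stretches of these transcripts and are named only: CD3D A_01_P1680111, CD3G A_01_P010523, CD247 A_01_P002674, CD8B A_01_P005697, ZAP70 A_01_P004600 and LCK A_01_P011763, A_01_P1777671, A_01_P1800296 and A_01_P1830841. Where a gene had several probes, the brightest one named in the scanner output stands for the gene.

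On every day the CD3, zeta, LCK and ZAP70 transcripts stayed within 0.7 log2 units of their pre-irradiation level. These are group means on arrays scaled to the median array. CD8B was called lower at day 3, in its brighter probe only. CD4 lay higher after irradiation without passing the threshold of adjusted p under 0.005. At day 3, 1 of the 6 genes was lower and 0 were higher, against 7.58% of all genes lower and 5.94% higher in their brightest probe. At day 5 and at day 7, 0 of the 6 genes were lower and 0 higher, against 9.16% lower and 6.23% higher of all genes at day 5 and 7.21% and 2.67% at day 7. By probe, 1 of 12 changed at day 3 and 0 at days 5 and 7, while 13.5%, 16.7% and 10.9% of all tested probes did, and 6, 3 and 2 of the 12 had an unadjusted p under 0.05 by limma, beside 46.5%, 45.5% and 39.5% of all tested probes. The 1 probe called at day 3 was lower, as were 8.02% of all tested probes. The 6 genes had median log2 changes of -0.49, -0.36 and 0.02 on days 3, 5 and 7, beside medians over all tested probes of 0.02 on each day. The comparisons with pre-irradiation share the same 7 control arrays. In whole blood, fewer cells of a type and less RNA per cell cannot be told apart, and every value is relative to the median signal of its array.

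**Figure D1:**
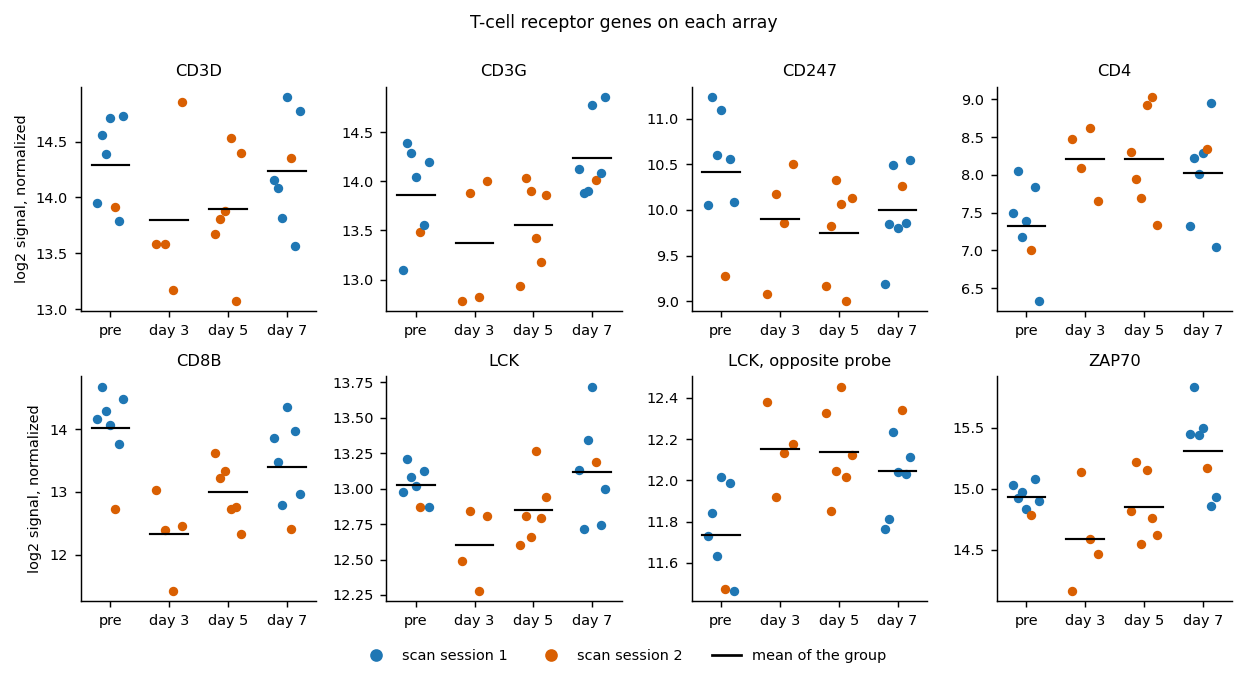
Normalized log2 signal (vertical axis) of the brightest probe of each T-cell receptor gene, and of the LCK probe that moved the other way, on each array of the 4 groups (horizontal axis); each point is 1 array, coloured by scan session, and the line is the group mean. CD8B lay at 11.42 to 13.03 at day 3, and the only pre-irradiation array in that range was the one scanned in session 2, at 12.74.

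CD3D, a CD3 chain that pairs with CD3E, had log2 signals of 13.95, 14.56, 14.39, 14.71, 13.91, 13.79 and 14.73 in pre-irradiation replicates 1 to 7. At day 3, replicates 1, 2, 4 and 7 had 13.58, 13.58, 13.17 and 14.86. Day 5 ran from 13.07 to 14.53 with a median of 13.84, and day 7 from 13.57 to 14.90 with a median of 14.16. Of the day 3 arrays, 3 lay below every pre-irradiation array and 1 above all of them, so that the groups were not separated. Relative to pre-irradiation, the log2 signal differed by -0.50 (SE 0.31, adjusted p = 0.235), -0.40 (SE 0.25, adjusted p = 0.230) and -0.06 (SE 0.23, adjusted p = 0.884) on days 3, 5 and 7. All 6 animals sampled at day 5 were lower than in their own pre-irradiation sample, as were 3 of 4 at day 3 and 3 of 7 at day 7. The own samples of the day 3 and day 5 animals were scanned in the other session. The 1 pre-irradiation array of the session of days 3 and 5, replicate 5, had 13.91, beside means of 13.80 and 13.89 on those days.

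CD3G, the chain that pairs with CD3E in the other CD3 dimer, averaged 13.87 ± 0.49 (SD, n = 7) before irradiation, 13.37 ± 0.66 (SD, n = 4) at day 3, 13.56 ± 0.44 (SD, n = 6) at day 5 and 14.24 ± 0.41 (SD, n = 7) at day 7. It was lower than in the own pre-irradiation sample in 4 of 4 animals at day 3 and 6 of 6 at day 5, but in 2 of 7 at day 7. The own pre-irradiation samples of the day 3 and day 5 animals were scanned in the other session. Against the 1 pre-irradiation array of their own session, 5 of 7 genes, with ZAP70, were negative at day 3 and 2 of 7 at day 5. In the fit blocked on the animal, 6 of 7 were negative on both days. The log2 change of CD3G was -0.49 (SE 0.32, adjusted p = 0.248), -0.31 (SE 0.25, adjusted p = 0.358) and 0.37 (SE 0.24, adjusted p = 0.265) on the 3 days. The CD3G probe printed above gave -0.32, -0.15 and 0.31, the same signs with smaller sizes.

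CD247, the zeta chain, which carries more of the tyrosine motifs than any CD3 chain, averaged 10.42 ± 0.68 (SD, n = 7) before irradiation and 9.91 ± 0.61 (SD, n = 4), 9.75 ± 0.55 (SD, n = 6) at days 3 and 5, and at day 7 it ran from 9.19 to 10.55 with a median of 9.86 (7 arrays). In limma, the log2 change of CD247 was -0.51 (SE 0.38, adjusted p = 0.304), -0.67 (SE 0.32, adjusted p = 0.122) and -0.42 (SE 0.30, adjusted p = 0.316). Within the scan session that held days 3 and 5, the sign turned to 0.63 and 0.48, since its 1 pre-irradiation array had the lowest pre-irradiation value, 9.27. Within the other session the day 7 change was -0.65 (adjusted p = 0.109). The CD247 probe found by accession gave -0.43, -0.41 and -0.03.

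CD8B, the beta chain of the CD8 coreceptor of cytotoxic T cells, was the only member called lower, at day 3 and in its brighter probe. Its log2 signals in pre-irradiation replicates 1 to 7 were 14.16, 14.68, 14.30, 14.07, 12.74, 13.77 and 14.49. At day 3, replicates 1, 2, 4 and 7 had 13.03, 12.39, 11.42 and 12.45, and 3 of these 4 lay below every pre-irradiation array. Day 5 ran from 12.34 to 13.62 with a median of 12.99, and day 7 from 12.41 to 14.35 with a median of 13.48, both overlapping the pre-irradiation arrays. The day 3 level was 3.26-fold lower than before irradiation (log2 change -1.71, SE 0.37, adjusted p = 0.0048), and the changes at days 5 and 7 were -1.03 (2.04-fold, SE 0.30, adjusted p = 0.016) and -0.62 (1.54-fold, SE 0.34, adjusted p = 0.183). It was below the own pre-irradiation level in 4 of 4, 6 of 6 and 5 of 7 animals. A fit blocked on the animal gave -2.03 (adjusted p = 0.0064) for day 3 and -1.24 (adjusted p = 0.0031) for day 5, so that the call moved from the earlier to the later of these days. The day 3 call was also lost without any 1 of replicates 1, 2, 3, 4, 6 and 7.

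Against the 1 pre-irradiation array of their own scan session, that of replicate 5 at 12.74, the day 3 arrays differed in CD8B by -0.41 and the day 5 arrays by 0.27. Values against this lone array, here and for other genes, are descriptions with no test. Within the session that held 6 pre-irradiation and 6 day 7 arrays, day 7 was -0.67 (adjusted p = 0.091). The probe printed above, in the extracellular part, gave smaller differences from pre-irradiation of -0.74 (SE 0.32, adjusted p = 0.085), -0.33 (SE 0.25) and -0.12 (SE 0.25), with 4 of 4 and 6 of 6 animals lower at days 3 and 5 and 3 of 7 at day 7. Its sign turned to 0.33 and 0.74 against the 1 pre-irradiation array of the session of days 3 and 5.

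CD4, the coreceptor of helper T cells, which primate monocytes also carry, moved the other way. Its log2 signals before irradiation were 7.49, 8.05, 7.17, 7.39, 7.01, 7.83 and 6.33 in replicates 1 to 7. At day 3 replicates 1, 2, 4 and 7 had 8.47, 8.09, 8.62 and 7.65, and 3 of these 4 lay above every pre-irradiation array. Day 5 ran from 7.33 to 9.03 with a median of 8.13, and day 7 from 7.04 to 8.96 with a median of 8.23, with 3 of 6 and 4 of 7 arrays above all of the controls. CD4 had log2 changes of 0.88 (SE 0.31, adjusted p = 0.043), 0.88 (SE 0.32, adjusted p = 0.047) and 0.70 (SE 0.31, adjusted p = 0.104) in the order of the days, and it was higher than in the own pre-irradiation sample in 4 of 4, 5 of 6 and 6 of 7 animals. The sign was the same within the scan sessions, with 0.60 (adjusted p = 0.240) at day 7, and with every day 3 and day 5 array above the 1 pre-irradiation array of its session, which had 7.01.

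Markers of monocytes are set beside CD4, which primate monocytes share. Of 11 tested monocyte markers 4, 4 and 1 were higher on days 3, 5 and 7 and 0 were lower, against 5.94%, 6.23% and 2.67% of all genes higher, and the rises called at day 3 included 2.83 for MS4A7, 1.84 for FCN1 and 1.38 for FGL2 on the log2 scale. With 1 replicate left out at a time, 3 to 5, 2 to 4 and 0 to 2 of the markers were called higher. The mean log2 signal of the list ran from 11.2 to 11.8 before irradiation, from 12.5 to 13.1 at day 3, from 11.8 to 12.8 at day 5 and from 11.2 to 12.5 at day 7. Over the 24 arrays Pearson's r of CD4 was 0.534 with this mean and -0.497 with the mean of CD3D and CD3G. These arrays share groups and scan sessions, and the part of monocyte transcripts in the CD4 values was not tested.

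**Figure D2:**
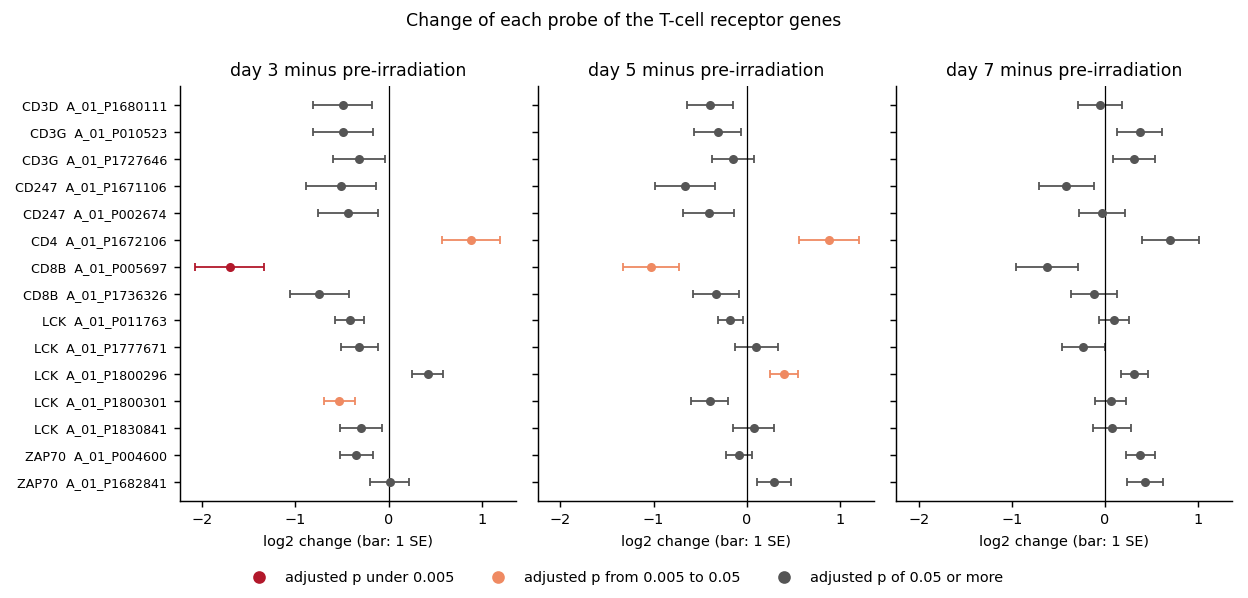
Log2 change from pre-irradiation (horizontal axis, with bars of 1 SE from limma) of each of the 15 probes of the T-cell receptor genes (vertical axis) at days 3, 5 and 7; the colour gives the adjusted p. Only the brighter CD8B probe at day 3 passed 0.005, and CD4 and the LCK probe A_01_P1800296 lay to the right of 0 on each day.

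LCK, the kinase held by the coreceptors, was measured by 5 probes that disagreed. The brightest, A_01_P011763, was narrow before irradiation, at 13.02 ± 0.13 (SD, n = 7), and had 12.49, 12.85, 12.28 and 12.81 at day 3, all 4 below every pre-irradiation array. It had log2 changes of -0.42 (SE 0.15, adjusted p = 0.053), -0.18 (SE 0.13, adjusted p = 0.327) and 0.10 (SE 0.16, adjusted p = 0.691). The printed probe A_01_P1800301, in the kinase domain, gave -0.53 (SE 0.17, adjusted p = 0.029), -0.40 (SE 0.20) and 0.06 (SE 0.17). Another kinase-domain probe, A_01_P1800296, moved the other way and gave 0.42 (SE 0.16, adjusted p = 0.067), 0.40 (SE 0.15, adjusted p = 0.047) and 0.31 (SE 0.15, adjusted p = 0.124). Of its arrays, 3 of 4, 4 of 6 and 5 of 7 lay above every pre-irradiation array. The last probes, A_01_P1777671 and A_01_P1830841, lay between -0.32 and 0.10.

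The LCK probes also differed in what they varied with over the 24 arrays. With the mean of CD3D and CD3G, r was 0.646 for A_01_P011763 and 0.648 for A_01_P1800301, but -0.201 for A_01_P1800296. With the mean of the monocyte markers, r was -0.642, -0.724 and 0.554 in the same order. These are descriptions over arrays that share groups, and why the probes differ was not tested.

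ZAP70, the kinase that docks on the phosphorylated motifs, gave 15.03, 14.92, 14.98, 14.84, 14.79, 15.08 and 14.90 before irradiation in its brighter probe, an SD of 0.10. At day 3 the values were 14.16, 15.14, 14.59 and 14.47, with 3 arrays below and 1 above all of the controls, and day 7 ran from 14.86 to 15.84 with 5 of 7 arrays above all controls. Its log2 change was -0.35 (SE 0.18, adjusted p = 0.150), -0.08 (SE 0.14, adjusted p = 0.682) and 0.38 (SE 0.16, adjusted p = 0.089) at days 3, 5 and 7. Quantile normalization raised the day 7 change to 0.94 (adjusted p = 0.0021), which passes the threshold. The kinase-domain probe gave 0.01, 0.29 and 0.43, with 7 of 7 animals higher than before at day 7.

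Between the days after irradiation, 0 of the 6 genes changed by limma in any of the 3 comparisons, where 1.26% of all tested probes were called for day 7 against day 3, 0.0184% for day 5 against day 3, and 0.00368% for day 7 against day 5. The 343 calls of day 7 against day 3 became 0 to 246 on leaving out 1 replicate, with 0 without replicate 1, 3 without replicate 4 and 28 without replicate 7, and 0 with the replicate block. Of the 12 probes, 0 had an unadjusted p under 0.05 for day 5 against day 3, 5 for day 7 against day 3 and 1 for day 7 against day 5, beside 10%, 32.7% and 20.8% of all tested probes. From day 3 to day 7 the log2 change was 1.08 for CD8B (adjusted p = 0.083), 0.86 for CD3G (adjusted p = 0.074), 0.51 for LCK (adjusted p = 0.136) and 0.44 for CD3D (adjusted p = 0.397). CD4 gave -0.18 (adjusted p = 0.747), the only one of the 6 genes with a negative sign.

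The difference between CD4 and CD8B was then taken within each array, where the scaling of the array cancels; CD8B stands in for CD8A. The log2 signal of CD4 minus that of CD8B was -6.67, -6.63, -7.12, -6.68, -5.73, -5.94 and -8.16 before irradiation and -4.56, -4.30, -2.80 and -4.80 at day 3. All 4 arrays at day 3 and all 6 at day 5 lay above every pre-irradiation array, as did 4 of 7 at day 7. Relative to pre-irradiation, the difference rose by 2.59 to day 3 (6.02-fold, exact permutation p = 0.00303, adjusted p = 0.00909 over 6 tests), 1.91 to day 5 (3.75-fold, exact p = 0.00117, adjusted p = 0.00699) and 1.32 to day 7 (2.5-fold, exact p = 0.0117, adjusted p = 0.0233), all two-sided. The smallest p that the number of arrays allows was 0.00303 at day 3 and 0.000583 at days 5 and 7. A rise in this difference shows unequal change of both transcripts and no absolute level.

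Taken per animal, CD4 minus CD8B was higher than before irradiation in 4 of 4 animals at day 3, 6 of 6 at day 5 and 7 of 7 at day 7, by means of 2.92, 2.07 and 1.32. Exact sign-flip tests gave p = 0.125, 0.0313 and 0.0156, the smallest that 4, 6 and 7 pairs allow, and 0.15, 0.0625 and 0.0625 after adjustment. Within the scan session of days 3 and 5, all of their arrays lay above the 1 pre-irradiation array, by means of 1.62 and 0.934 (5 and 7 splits exist, too few for any p under 0.05). Within the other session, day 7 exceeded pre-irradiation by 1.27 (6 arrays against 6, exact p = 0.00866). ZAP70 minus CD3D, the other difference taken within arrays, changed by 0.15, 0.32 and 0.43 (adjusted exact p = 0.709, 0.328 and 0.223). Per animal it was higher in 2 of 4, 6 of 6 and 4 of 7 animals, by means of 0.36, 0.35 and 0.43. Exact sign-flip tests gave adjusted p = 0.5, 0.0625 and 0.15.

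**Figure D3:**
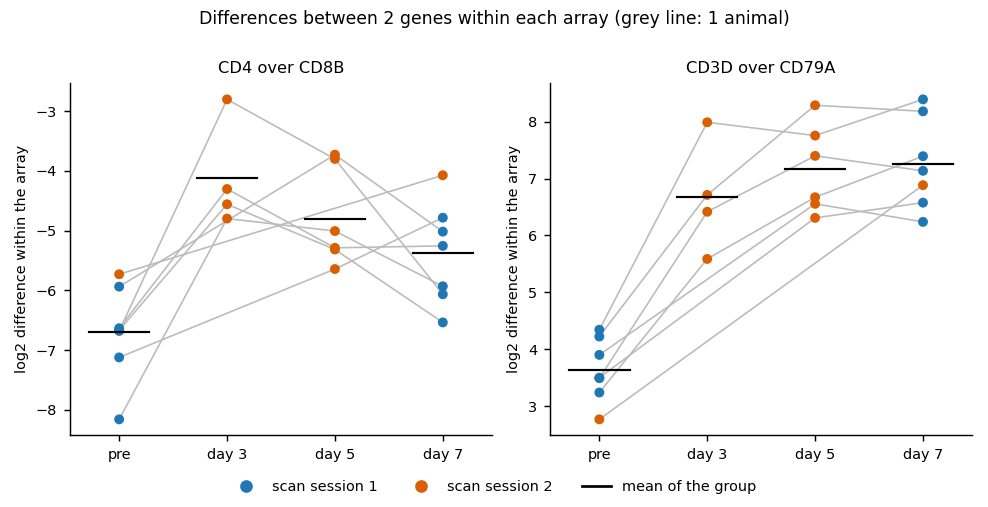
Log2 signal of CD4 minus that of CD8B (left) and of CD3D minus that of CD79A (right) within each array (vertical axis) in the 4 groups (horizontal axis); points are arrays coloured by scan session, grey lines join the arrays of 1 animal and black lines are group means. CD4 minus CD8B rose in every animal sampled after irradiation, and CD3D minus CD79A lay above all pre-irradiation values on each later array.

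The T-cell transcripts are next set beside those of other blood cells. Of 11 tested B-cell markers, 10, 10 and 11 were lower on days 3, 5 and 7, with median log2 changes of -3.26, -3.31 and -3.49, against 7.58%, 9.16% and 7.21% of all genes lower. The mean log2 signal of these B-cell genes ran from 10.4 to 10.8 before irradiation and from 6.65 to 8.15 on all later arrays, whereas the mean over the T-cell receptor genes, with ZAP70 and with the brighter CD247 probe found by accession, ran from 12.5 to 13.4 before and from 12.3 to 13.6 after. Of 15 natural killer cell markers, 0 changed at days 3 and 5, and TYROBP, an adaptor of activating receptors, was called lower at day 7 (log2 change -0.80), a call that was lost without any 1 of the 7 replicates. CD3D minus CD79A, a signalling chain of the B-cell receptor, rose within the array by 3.04 (8.21-fold), 3.52 (11.5-fold) and 3.62 (12.3-fold), and every later array lay above every pre-irradiation array. Against the arrays of the same scan session the rises were 3.91, 4.39 and 3.54. This pair was chosen after its values were seen, and no test of it is given. Of 11 platelet markers 11, 2 and 0 were higher on days 3, 5 and 7, and of 11 erythroid markers 8, 10 and 9 were lower; their part in the T-cell values was not tested.

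Among 55 genes listed as partners of the receptor, 42 had a probe and all 42 were tested. Lower were 3 genes at day 3 and 2 on each later day, and higher were 3, 3 and 0. The 3 of day 5 include CBL, which entered the tests only through its day 5 and day 7 arrays. These counts stand beside the shares of all genes given above (7.58% lower and 5.94% higher at day 3), and the median log2 change of the list was -0.45, -0.17 and 0.12. In the fit blocked on the animal, 1 was lower and 0 higher at day 3, and the counts of days 5 and 7 did not move. With 1 replicate left out at a time, 1 to 4 were lower and 0 to 2 higher at day 3, 2 to 3 lower and 1 to 5 higher at day 5, and 2 to 3 lower at day 7. GRAP on all 3 days and TESPA1 at days 5 and 7 were called without each replicate in turn.

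GRAP, a small adaptor related to GRB2 that links tyrosine kinases to the RAS pathway and is used by both T and B cells, was lower on every day. Its log2 signal was 14.01, 15.00, 14.90, 14.43, 14.51, 14.63 and 14.41 before irradiation and 12.54, 12.51, 11.84 and 12.02 at day 3. Day 5 ran from 12.40 to 12.99 and day 7 from 12.62 to 13.54, and no later array reached the lowest pre-irradiation value. GRAP had log2 changes of -2.33 (adjusted p = 4.6e-05), -1.95 (adjusted p = 2.4e-06) and -1.49 (adjusted p = 7.5e-05) on days 3, 5 and 7. Against the 1 pre-irradiation array of their session days 3 and 5 differed by -2.28 and -1.91, and within the session of 6 and 6 arrays day 7 by -1.49 (adjusted p = 0.00061). Over the 24 arrays its r was 0.873 with the mean of the B-cell markers and 0.343 with the mean of CD3D and CD3G; the part of B cells in its values was not tested.

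TESPA1, a protein of developing and mature T cells that links the receptor to calcium release, was called lower at days 5 and 7 but not at day 3. No comparison between these days called TESPA1. It lay between 14.03 and 14.73 before irradiation and had 14.11, 14.68, 14.82 and 13.63 at day 3, where the log2 change was 0.05. At day 5 it ran from 12.30 to 13.24 and at day 7 from 11.69 to 13.64, all of these arrays below every pre-irradiation array. Its level differed from pre-irradiation by -1.34 at day 5 (adjusted p = 0.00014) and -1.53 at day 7 (adjusted p = 0.00075), and -1.49 within the session of 6 and 6 arrays at day 7 (adjusted p = 0.0035). Its r was 0.601 with the B-cell markers and -0.091 with the mean of CD3D and CD3G.

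ICOS, a costimulatory receptor of activated T cells, was lower at day 3 and near its earlier level at day 7. It had 10.41, 10.82, 10.65, 9.09, 10.57 and 10.28 in pre-irradiation replicates 2 to 7, the spot of replicate 1 having been dropped as an outlier, and 7.95, 8.51, 8.12 and 8.44 at day 3. The log2 change from pre-irradiation was -2.05 (adjusted p = 0.00097), -0.76 and 0.05 on days 3, 5 and 7. The day 3 change was -0.84 against the 1 pre-irradiation array of the same session, whose value of 9.09 was the lowest of its group, and -2.09 (adjusted p = 0.012) in the blocked fit. The call was also lost without replicate 2, 4 or 7.

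The other partners called at day 3 changed less. SKAP1, an adaptor in the pathway from the receptor to integrins, was lower by a log2 change of -0.95. SLA2, an adaptor that dampens receptor signalling, was higher by 1.10, WAS, the actin regulator that is lost in Wiskott-Aldrich syndrome, by 1.07 and VAV1, an exchange factor for RAC, by 0.73. WAS and VAV1 are used in most white blood cells, and at day 5 they were again higher by 1.07 and 0.85. Over the arrays VAV1 had r = 0.835, WAS 0.684 and SLA2 0.174 with the mean of the neutrophil markers. That mean was 11.6 to 12.9 before irradiation and 12.8 to 14.2 at day 3. With the mean of the monocyte markers, r was 0.526, 0.706 and 0.631 in the same order. The part of neutrophils and monocytes in these values was not tested. CBL, a ubiquitin ligase, was called higher at day 5. It was well above background on 0 of 7 pre-irradiation, 0 of 4 day 3, 3 of 6 day 5 and 2 of 7 day 7 arrays. CBL thus entered the tests only through days 5 and 7, no fold is given, and nothing is read from its call. In the blocked fit SKAP1, SLA2, WAS, VAV1 and ICOS lost their day 3 call. Leaving out a replicate ended the day 3 call of SLA2 for each of the 7, of WAS and VAV1 for each but replicate 6, and of SKAP1 for replicates 1, 2, 4 and 7. The day 5 call of WAS was lost without replicate 1, 2, 3, 4 or 7, and that of VAV1 held without each.

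From day 3 to day 7, 3 of the 42 partners were higher, against 0.363% of all genes: ICOS by 2.10, THEMIS, a regulator of receptor signalling in thymocytes, by 1.12, and TRAT1, an adaptor that travels with the receptor complex, by 1.06. Their adjusted p were 0.0037, 0.0041 and 0.0037. All 3 calls were lost without any 1 of the 7 replicates, and also with the replicate block (log2 changes of 2.24, 1.27 and 0.99, adjusted p = 0.015, 0.015 and 0.026).

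**Figure D4:**
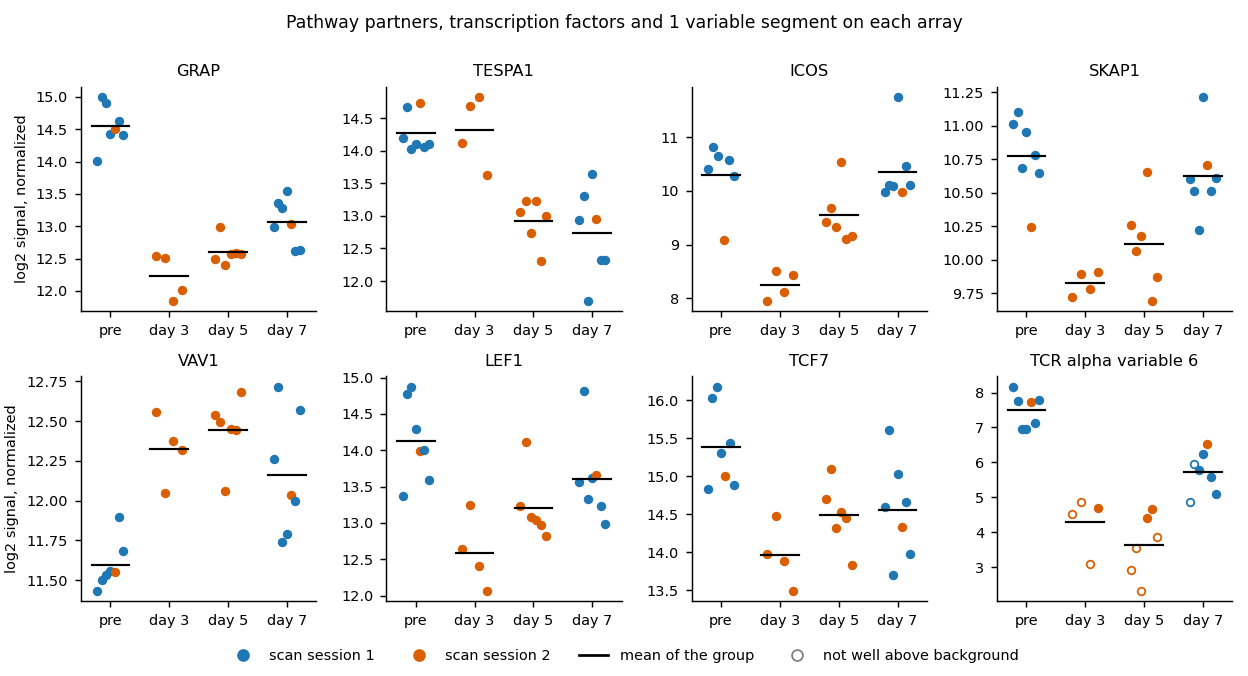
Normalized log2 signal (vertical axis) of pathway partners, the transcription factors LEF1 and TCF7, and T-cell receptor (TCR) alpha variable 6 on each array of the 4 groups (horizontal axis); points are arrays coloured by scan session, open where the spot was not well above background, and lines are group means. GRAP and alpha variable 6 lay below every pre-irradiation array on each later array, and TESPA1 did so from day 5 on.

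Of 13 tested transcription factors of the T lineage, 3 were lower and 0 higher at day 3, against 7.58% and 5.94% of all genes, and 0 changed at days 5 and 7. LEF1 and TCF7, partner factors of naive T cells, had log2 changes of -1.54 and -1.42, and GATA3, the factor of type 2 helper cells, of -0.72. Medians of the list were -0.49, -0.10 and 0.18 on the 3 days. In the fit blocked on the animal 0 of the 3 calls held (adjusted p = 0.010, 0.0086 and 0.036), while the changes were -1.42, -1.30 and -0.67. The count of 3 also fell to 1 without replicate 5 and to 0 without any other replicate, and 1 factor was called higher at day 5 without replicate 7. Against the 1 pre-irradiation array of their session they were -1.40, -1.04 and -0.85.

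The array also carried 28 probes whose descriptions name a variable segment of the receptor, 22 of the alpha and 6 of the beta chain, and 24 passed the filter on dim probes. The results turn on 2 alpha segments, whose probes end in a related stretch of the gene; the longest run of bases that both hold is in capitals.
T-cell receptor alpha variable 6, A_01_P1686206: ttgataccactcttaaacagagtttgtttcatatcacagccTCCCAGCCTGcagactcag
T-cell receptor alpha variable 23/delta variable 6, A_01_P1672431: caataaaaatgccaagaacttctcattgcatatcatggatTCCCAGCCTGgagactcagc
The alpha variable 6 probe lies at chr7:84496834-84496893 on the plus strand, and the other is unplaced in the headers.

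All 19 tested alpha segments had a negative log2 change at days 3 and 5, with medians of -1.46 and -0.79, and 14 of 19 did at day 7, with a median of -0.17. Of 5 beta segments, 4 were negative at days 3 and 5 and 2 at day 7, with medians of -1.05, -0.65 and 0.10. Past the threshold, 4, 2 and 1 segments were lower on the 3 days and 0 were higher, against 8.02%, 9.58% and 7.27% of all probes lower. With 1 replicate left out at a time, 2 to 3 were lower at day 3, 1 to 2 at day 5 and 1 at day 7. The mean over the 24 segments ran from 5.87 to 6.93 before irradiation, from 4.74 to 5.24 at day 3, from 4.96 to 6.09 at day 5 and from 5.70 to 6.62 at day 7, so that all 4 arrays at day 3, 5 of 6 at day 5 and 1 of 7 at day 7 lay below every control. Segments of a chain resemble each other in sequence, and their probes are not replicates. At day 3, alpha variables 9-2, 20, 24, 39 and 41 were well above background on 0 of 4 arrays. Alpha variable 22 and beta variables 10-2, 27 and 28 were so on all 4. Without the filter on dim probes, the median log2 change of all probes was -0.25, -0.23 and -0.25 on the 3 days. The medians and means of the segments thus rest in part on spots near background.

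The log2 signal of alpha variable 6 was 8.17, 7.74, 6.95, 6.96, 7.72, 7.14 and 7.78 before irradiation and 4.51, 4.88, 3.11 and 4.70 at day 3. Day 5 ran from 2.33 to 4.66 and day 7 from 4.87 to 6.53, and every later array lay below every earlier one. The spot was well above background on 7 of 7 pre-irradiation arrays but on 1 of 4, 2 of 6 and 5 of 7 at days 3, 5 and 7. With these dim spots taken at their measured signal, it was lower by log2 differences of -3.19 (adjusted p = 0.00013), -3.87 (adjusted p = 4.1e-06) and -1.77 (adjusted p = 0.00033), sizes that rest on spots mostly near background at days 3 and 5. Within the session of 6 and 6 arrays it was -1.87 at day 7 (adjusted p = 0.00071), and against the 1 pre-irradiation array of their session -3.42 and -4.09 at days 3 and 5. Under the normexp background, which adds an offset to dim spots, the changes were -0.96, -0.54 and -0.81 and lost their calls (adjusted p = 0.135, 0.358 and 0.155).

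The alpha variable 23/delta variable 6 segment was lower by log2 changes of -2.23 at day 3 (adjusted p = 0.00026) and -1.25 at day 5 (adjusted p = 0.0028), and had -0.17 at day 7. Its spot was well above background on 1 of 4 arrays at day 3 and 5 of 6 at day 5, and on all arrays of the other groups. Alpha variable 12-2 and alpha variable 22 were lower at day 3 by -1.55 and -1.52, the former on spots of which 3 of 4 were well above background. In the blocked fit 1 segment, alpha variable 6, kept its call at day 3. Alpha variable 6 was also called on all 3 days without each replicate in turn. The alpha variable 23/delta variable 6 call held in this way at day 3 but was lost at day 5 without replicate 1, 2, 3, 6 or 7. The day 3 calls of alpha variable 12-2 and of alpha variable 22 were lost without replicate 1, 4 or 7 and without any 1 of replicates 1 to 6, respectively. From day 3 to day 7, 0.317% of all probes were higher, and of the segments only alpha variable 24 passed the threshold. It was well above background on 0 of 4 arrays at day 3, 5 of 7 at day 7 and 1 of 7 before irradiation, so that it entered the tests only through its day 7 arrays, and nothing is read from its call.

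**Figure D5:**
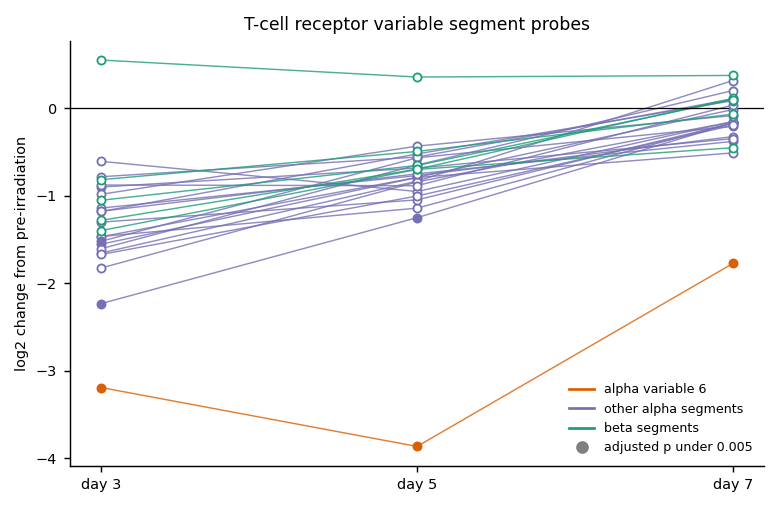
Log2 change from pre-irradiation (vertical axis) of the 24 tested T-cell receptor variable segment probes at days 3, 5 and 7 (horizontal axis); each line is 1 segment and filled points passed an adjusted p of 0.005. Alpha variable 6, at -3.19, -3.87 and -1.77, was well above background on 1 of 4, 2 of 6 and 5 of 7 arrays of these days, and its changes were -0.96, -0.54 and -0.81 under the normexp background.

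Over the 24 arrays CD3D and CD3G varied together with r = 0.705, and CD3D had r of 0.593 with LCK, 0.543 with CD247, 0.376 with CD8B, 0.182 with ZAP70 and -0.517 with CD4. The genes whose brightest probe was most like the mean of CD3D and CD3G, among 10777 genes compared, were RHOT1 (r = 0.829), RTCA (0.820), HACD3 (0.812), SAAL1 (0.800), SEPT7, OTUD6B, GGH, TTC33, PUS3 and SSB (0.789). The median r of all genes was 0.02. These correlations describe arrays that share groups and scan sessions.

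The response at day 7 was compared between the 4 males and 3 females with an interaction term. By limma 0 of 27134 probes passed an adjusted p of 0.05, the members among them, and no member probe moved one way in every female and the other way in every male.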

How the data were processed

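The deposited scanner files hold intensities of 1-colour Agilent rhesus arrays, background-corrected by the authors' Feature Extraction software (version 12.0.2.2 per the file headers, 10.7 per the labels and methods). The deposited series matrix holds log2 values that the authors normalized to the median array; it was used as an alternative. Probe places are those of the file headers. The methods name a human array, whereas labels and headers name a rhesus one.

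From the processed intensities, outlier spots were dropped, spots of a probe averaged on the log2 scale and each array shifted to the median array (shifts -0.87 to 2.03). A probe was tested where 4 or more of the 24 arrays had it well above background (27138 of 43603). Of the 43603 probes, 23054 were named by the scanner file, 539 by gene ID and 704 by accession, and 19306 stayed unnamed. Each contrast had its own limma fit (limma 3.58.1, R 4.3.3, statmod 1.5.0), two-sided, with Benjamini-Hochberg adjustment over all tested probes and a threshold of 0.005, checked on simulated data. All adjusted p-values are limma's unless an exact test is named. Differences within arrays were compared by exact permutation tests over arrays with a threshold of 0.05.

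Groups come from the labels. Replicate numbers were taken as animals: deviations of same-numbered arrays from their group means correlated at 0.132 to 0.648 in every comparison, with medians of -0.09 to -0.05 for different numbers. Where the labels do not say that samples were separate draws, p-values cover only the spread between these arrays, whose number limits the precision.

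Genes named were all members, at most 8 called pathway partners and 3 called genes of every other list per day by size of change, and the 10 genes most like the mean of CD3D and CD3G. The members and lists were chosen with earlier results of these data known. Alternatives were quantile normalization, normexp background (offset 50), no filter on dim probes, the authors' matrix, the mean of a gene's probes, blocks for animal, slide and scan session, single sessions, a threshold of 0.05 and leaving out each replicate. Some marker gene values and probe sequences are not reported here.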

Additional observations from a re-analysis of the deposited data

Results flagged for a closer look

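Within groups of 4 to 7 arrays, 132 sets of values were checked for an array far from the others, and 9 held one, where chance alone gives about 1 in 20, or 6.6. The LCK probe A_01_P1800301 had such an array in 3 groups. It was lowest at 12.59 in pre-irradiation replicate 5, and highest at 13.50 in day 5 replicate 4 and at 13.79 in day 7 replicate 4. Pre-irradiation replicate 5 is the only control array of the scan session that holds days 3 and 5. T-cell receptor alpha variable 12-2 was lowest at 5.36 in day 5 replicate 3. GRAP was highest at 12.99 in day 5 replicate 2, still below every pre-irradiation array, and WAS was highest at 9.97 in pre-irradiation replicate 6. ICOS was highest at 11.75 in day 7 replicate 4. LEF1 was highest in replicate 2 at both later days, at 14.11 on day 5 and 14.82 on day 7.

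Between days 3 and 7 the response differed, by limma over the arrays of both days, in 3 of 42 pathway partners and 1 of 13 T-lineage transcription factors. Of all genes, 0.363% were higher in their brightest probe, and 1.26% of all tested probes were called in either direction. Of 11 platelet markers, 7 were lower at day 7. ICOS was higher at day 7 by 2.10, THEMIS by 1.12 and TRAT1 by 1.06 on the log2 scale, and TBX21, the factor of type 1 helper and cytotoxic cells, was lower, at -1.80. The calls of ICOS, THEMIS and TRAT1 were lost without any 1 of the 7 replicates, and that of TBX21 without replicate 1, 4 or 7. With the replicate block TBX21 also lost its call in limma (-1.82, adjusted p = 0.012). Alpha variable 24 also passed the threshold but is not counted here. It was well above background on 0 of 4 arrays at day 3 and 5 of 7 at day 7 and entered the tests only through the latter; the difference of its measured log2 means, 1.67, is no estimate of size, and day 7 was at least 1.09-fold above the lowest signal measurable on the day 3 arrays. Of these arrays, all 4 at day 3 and 1 of 7 at day 7 were scanned in the same session. With the scan session as a block, ICOS, THEMIS, TRAT1 and TBX21 kept their signs, at 1.72, 0.92, 1.34 and -1.37, and lost their calls (adjusted p = 0.509, 0.517, 0.264 and 0.492), in a fit whose within-session contrast rests on 1 day 7 array.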

How the results depend on the processing

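The 1 member gene called at day 3, CD8B, became 0 with the replicate block, with the slide or scan session block, within scan session 2, where the control arm is 1 array, with normexp background, without the filter on dim probes, with the mean of a gene's probes, and in 1 fit of all groups with a slide block, which was added after seeing the data; at a threshold of 0.05 it became 2. Leaving out 1 replicate gave 0 to 1, with 0 for each of replicates 1, 2, 3, 4, 6 and 7. At day 5 the count of 0 became 1 with the replicate block, 2 at a threshold of 0.05, and 0 to 1 on leaving out 1 replicate, with 1 without replicate 5. CD4 minus CD8B, added after the files were seen, was 1.62 and 0.934 at days 3 and 5 within session 2 and 2.92 at day 3 with the replicate block (sign-flip), where the number of arrays lets no p pass 0.05. It lost its call at day 5 with the replicate block (2.07, adjusted p = 0.0625), and at day 7 with quantile normalization (0.966), normexp background (0.889) and the replicate block (1.32, adjusted p = 0.0625). At day 7, leaving out 1 replicate gave 1.16 to 1.52, and the call was lost without replicate 2 (1.32) or 3 (1.16). The sign held in each of these settings. Over the main results and their alternatives, 198 values stayed on their side of the threshold, counts of 0 among them, 18 counts moved, 0 values reversed and 9 no longer passed, 3 of which could not.

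Across all probes the 3651 calls of day 3 became 160 with normexp background, 751 with the replicate block, 37 with the scan session block, 0 with the slide block or within session 2, and 863 to 3489 on leaving out 1 replicate (1398, 1615, 2397, 863 and 1792 without replicates 1, 2, 3, 4 and 7). The 4543 calls of day 5 became 282 with normexp background, 383 with the scan session block, 136 with the slide block, 42 in the added fit of all groups with a slide block and 2713 to 4292 on leaving out 1 replicate (2713, 2743 and 3027 without replicates 1, 2 and 7), and the 2951 of day 7 became 342 with normexp background and 1656 to 2576 on leaving out 1 replicate (1656, 1877 and 1704 without replicates 1, 2 and 7). At a threshold of 0.05 they were 9696, 9629 and 7503. The cause was not tested. The planned differences of CD4 over CD8A and LAT over CD3E were not run, since no probe for CD8A, LAT or CD3E was found here. Signal over background limits alpha variable 6, whose day 5 spots were mostly not well above background.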
